A study of Rattus norvegicus with 3 samples.

Results

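The respiratory chain of rat kidney mitochondria was examined through the nuclear genes of complexes I, III and IV and of ATP synthase, taken as every probe set whose single gene symbol began with Nduf, Uqcr, Cox4 to Cox8 or Atp5. This rule found 76 probe sets of 76 different genes among the 24834 probe sets of the array, of which 15049 carried a single gene symbol and represented 15037 genes. Complex I contributed 38 genes, complex III 8, complex IV 16 and ATP synthase 14. By textbook role, 62 of the 76 encoded subunits, 6 encoded assembly factors of complex I, 6 were isoforms or copies (Cox4i2, Cox6a2, Cox8b, Cox8c, Ndufa4l2 and Ndufa10l1), and the others were the supercomplex factor Cox7a2l and the ATP synthase inhibitor Atp5if1. The reference annotation lists 114 protein-coding symbols that match the rule, and 38 of them, among them Ndufs6, Cox7c, Cox7a1, Cox6b2, Atp5f1c and Atp5mc3, were not analysed here. For 40 of the 76 genes the annotation also holds similarly named copies, mostly pseudogenes, whose transcripts a probe set could share.

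Total RNA from 3 groups of male Wistar rats aged 7 weeks was hybridized to Clariom S arrays, 1 array per group. The control group had received an intraperitoneal injection of double distilled water, and the Tl 2 days and Tl 5 days groups had received thallium sulfate (Tl2SO4), a toxic salt of a heavy metal, 2 or 5 days before the kidneys were taken. The sources differ on the treatment, since the series description gives 30 mg/kg daily, the sample labels give 40 mg/kg daily with spleen as the source, and the titles and the study's methods name the kidney, with the methods describing a single administration at 30 mg/kg. In the Tl 5 days group 2 rats died before the planned end, and it is not stated which rats, or how many, gave the RNA of an array. With 1 array per group, no difference could be tested, the variation among rats is unknown, and "lower" and "higher" below describe only these arrays.

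Complexes I, III and IV pass electrons from NADH to oxygen and pump protons across the inner mitochondrial membrane, and ATP synthase uses the proton gradient to make ATP. Each complex joins catalytic core subunits to many accessory subunits, and dedicated assembly factors help to build it without remaining in it. The proximal tubule and the thick ascending limb of the kidney are rich in mitochondria, since the transport of salt and solutes there consumes much ATP.

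The values are log2 signals as deposited, and a difference of 1 on this scale is a 2-fold difference. The 18 proximal tubule markers were measured on all arrays and 17 of them lay above the 95th percentile of the external spike-in (ERCC) probe sets, which was 6.83 on the control array, whereas all 4 measured B cell markers and 7 of 8 T cell markers lay below it, so the RNA carried kidney genes and few signs of spleen. The median log2 value of the 76 genes was 11.43 in control, 11.11 in Tl 2 days and 11.17 in Tl 5 days, and 6 of them (Cox4i2, Cox6a2, Cox8b, Cox8c, Ndufa4l2 and Ndufaf7) were below 6.83 on all 3 arrays. The 1153 negative control probe sets had a median of 6.56 on the control array. Their differences at 2 days had quartiles of -0.53 and 0.39. The 7574 other genes with a mean log2 value below 7 spread less, with quartiles of -0.19 and 0.10. The negative control probe sets thus give a wide limit for genes of low signal. They are no measure of the noise at the higher signals of most of the 76 genes. The differences of these probe sets from control had an SD of 0.86 at 2 days and 0.88 at 5 days, with medians of -0.04 and 0.02. All named genes together had smaller SDs, 0.745 and 0.746.

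Most respiratory genes had slightly lower values 2 days after Tl than in control. In Tl 2 days, 64 of the 76 genes (84.2%) were lower than in control, against 40.7% of all 15037 genes, 8 were higher and 4 were exactly equal, against 19.8% equal among all genes. The median difference of the 76 genes was -0.32, a 0.80-fold level, with quartiles of -0.48 and -0.07, whereas the median of all genes was 0. The shift was common but small. Only the assembly factor gene Ndufaf6 was over 2-fold lower (4.65% of all genes were) and none was over 2-fold higher (6.03% of all genes were). At a limit of 1.5-fold, 8 genes (10.5%) were lower, close to the 10.7% of all genes, and none was higher, against 12% of all genes. The 8 were Ndufs1, Ndufs4, Ndufa9, Ndufab1, Ndufb4, Ndufaf6, Atp5mc1 and Atp5pf. The respiratory genes thus stood apart from the other genes by the direction of many small differences and not by large ones. In whole tissue, fewer cells of a mitochondria-rich type and less RNA per cell cannot be told apart.

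In Tl 5 days the same set was still mostly below control, by less. A lower value was seen for 55 genes (72.4%, against 40.3% of all genes), a higher value for 15, and an equal value for 6 (20.2% of all genes were equal). The median difference was -0.18, a 0.885-fold level. Ndufs4 was over 2-fold lower, where 4.87% of all genes were, and Cox7a2l was over 2-fold higher, where 5.37% of all genes were. Under quantile normalization this split was 3 lower and 0 higher, and with each array centred on the median of its genes it was 2 lower and 0 higher. Of all genes, 5.11% were then lower and 4.96% higher under quantile normalization, and 5.22% and 4.93% with centring. At 1.5-fold, 9 genes (11.8%) were lower against 9.97% of all genes, and 3 (Cox7a2l, Atp5if1 and Ndufaf5) were higher against 11.2% of all genes. Both comparisons share the single control array.

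**Figure D1:**
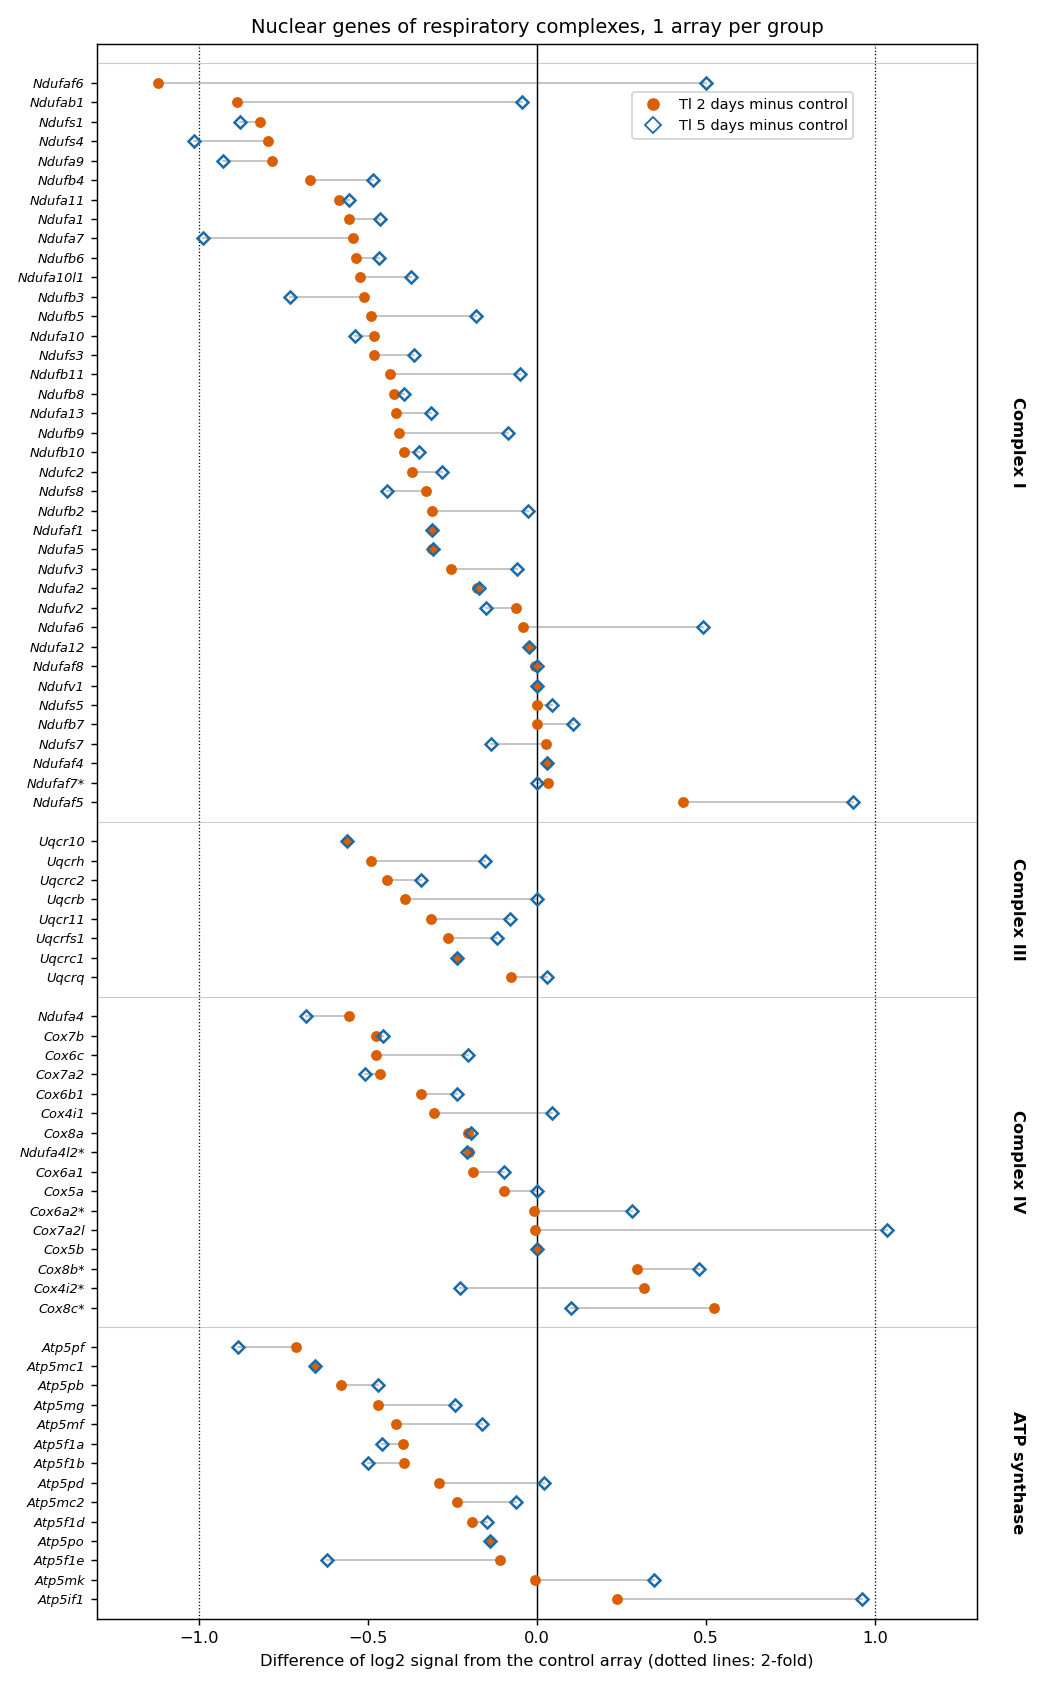
Difference in log2 value from control (horizontal axis) for each of the 76 genes, in Tl 2 days and Tl 5 days, 1 array each, sorted by complex, with the 2-fold limits as lines and an asterisk on the 6 genes below the ERCC 95th percentile on all arrays. Most points lie between 0 and the lower limit, and Ndufaf6, Ndufs4 and Cox7a2l pass a limit.

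**Figure D2:**
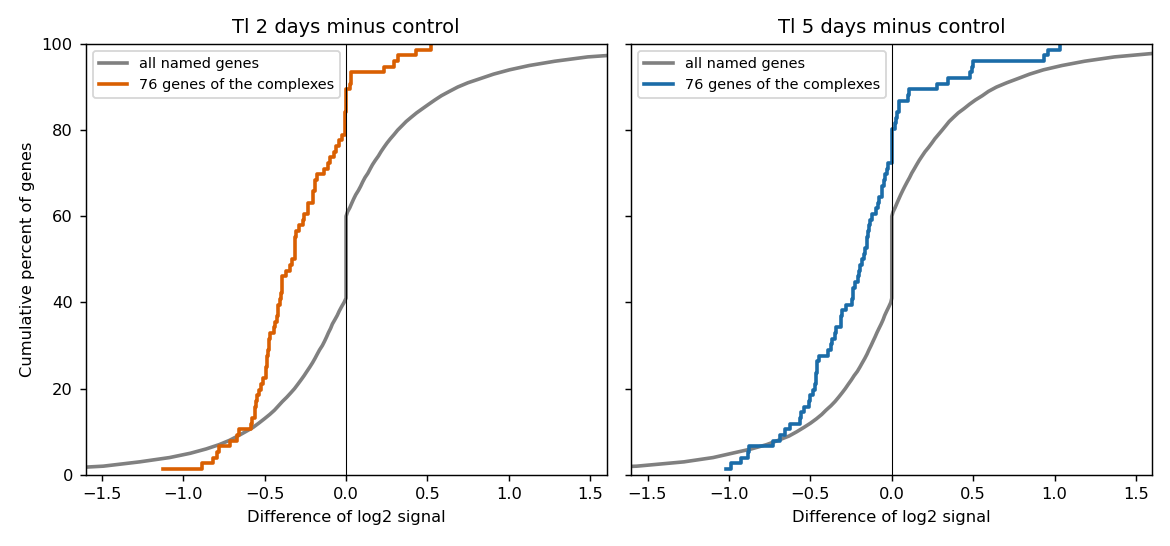
Cumulative percent of genes (vertical axis) by difference in log2 value from control (horizontal axis) for the 76 respiratory genes (coloured steps) and for all 15037 named genes (grey), in Tl 2 days and Tl 5 days. The respiratory genes reach 84.2% and 72.4% below 0, where all genes reach 40.7% and 40.3%, while few of them lie in the far tails.

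In all, 5 of the 76 genes were over 1.5-fold lower than control on both Tl arrays, namely Ndufs1, Ndufs4, Ndufa9, Atp5mc1 and Atp5pf. Across all genes 6.89% met this limit on both arrays, so these 5 of 76 are near the background share. Their promoters are shown because these genes met the limit at both times, together with that of Ndufaf5, which was higher on both arrays. Ndufaf5 was 1 of 5 such genes among the 76, where 28.4% of all genes were higher on both arrays. The promoters of the others (Atp5if1, Ndufaf4, Cox8b and Cox8c) are not shown. The sequences are from RefSeq on the GRCr8 build, run 5′ to 3′ along the gene's strand, and cover 250 bases before the annotated start and 50 after it. Capitals mark exact matches to letters bound by regulators of mitochondrial genes: CGCATGCGC for NRF1, CCGGAAGT for GABPA, AAGATGGCG for YY1, TCAAGGTCA for ERRalpha and CACGTG for the E-box read by Myc, each searched on both strands, and no match of a motif overlapped one of another motif in the promoters shown. Ndufs1 lies at chr9:72073556-72073855 on the minus strand and holds the GABPA letters on the opposite strand. Ndufs4, at chr2:47794865-47795164 on the minus strand, and Ndufa9, at chr4:161374121-161374420 on the minus strand, hold the YY1 letters just after the start. Atp5pf, at chr11:37375052-37375351 on the minus strand, holds the YY1 letters before the start, and Atp5mc1, at chr10:81523296-81523595 on the minus strand, holds the E-box. Ndufaf5, at chr3:147961362-147961661 on the plus strand, holds the NRF1 letters on both strands, overlapping, just before the start.
Ndufs1: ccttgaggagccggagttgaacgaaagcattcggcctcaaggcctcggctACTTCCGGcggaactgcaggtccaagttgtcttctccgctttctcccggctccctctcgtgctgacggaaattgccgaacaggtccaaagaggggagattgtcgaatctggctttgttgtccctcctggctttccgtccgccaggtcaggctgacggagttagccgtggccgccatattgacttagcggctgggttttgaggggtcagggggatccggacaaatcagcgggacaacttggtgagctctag
Ndufs4: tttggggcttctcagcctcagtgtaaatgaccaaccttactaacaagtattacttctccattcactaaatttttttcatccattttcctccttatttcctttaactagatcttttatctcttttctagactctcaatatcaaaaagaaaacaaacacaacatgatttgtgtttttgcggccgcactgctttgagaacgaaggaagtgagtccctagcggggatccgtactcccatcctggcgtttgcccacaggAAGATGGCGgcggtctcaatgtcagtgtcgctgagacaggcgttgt
Ndufa9: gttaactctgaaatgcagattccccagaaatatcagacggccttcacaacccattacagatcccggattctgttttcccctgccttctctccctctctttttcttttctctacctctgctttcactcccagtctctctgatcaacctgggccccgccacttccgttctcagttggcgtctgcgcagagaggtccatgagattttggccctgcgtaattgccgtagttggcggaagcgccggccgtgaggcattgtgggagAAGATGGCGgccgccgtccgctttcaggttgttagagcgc
Atp5pf: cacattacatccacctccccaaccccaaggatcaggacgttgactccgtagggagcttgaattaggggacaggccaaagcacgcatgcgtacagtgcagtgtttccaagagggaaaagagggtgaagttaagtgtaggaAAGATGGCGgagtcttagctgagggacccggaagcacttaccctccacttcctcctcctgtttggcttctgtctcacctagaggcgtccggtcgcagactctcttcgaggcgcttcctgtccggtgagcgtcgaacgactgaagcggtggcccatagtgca
Atp5mc1: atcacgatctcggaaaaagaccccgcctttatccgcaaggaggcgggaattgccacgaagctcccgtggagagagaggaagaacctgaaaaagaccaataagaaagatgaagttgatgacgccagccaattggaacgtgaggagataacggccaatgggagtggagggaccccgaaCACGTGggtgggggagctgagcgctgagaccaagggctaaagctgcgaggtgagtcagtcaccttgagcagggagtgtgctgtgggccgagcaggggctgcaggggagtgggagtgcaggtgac
Ndufaf5: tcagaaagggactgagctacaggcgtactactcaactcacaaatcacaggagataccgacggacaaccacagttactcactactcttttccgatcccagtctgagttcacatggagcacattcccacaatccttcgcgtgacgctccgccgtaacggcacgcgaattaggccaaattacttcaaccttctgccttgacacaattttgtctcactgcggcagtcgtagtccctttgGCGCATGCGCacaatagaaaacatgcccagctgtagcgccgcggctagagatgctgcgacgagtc

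A promoter was found for 67 of the 76 genes. The YY1 letters occurred in 10 of them (14.9%), against 2.6% of the 12435 promoters of named genes and 1.93% of all 27457 promoters. Except in Atp5pf and Uqcrc1, these matches began after the annotated start, at bases 3 to 37, and thus lay in transcribed sequence. The NRF1 letters were in 7 (10.4%, against 2.33% and 1.66%) and the GABPA letters in 8 (11.9%, against 6.06% and 4.01%). The E-box was in 6 (8.96%), near its share among named genes (7.94%, and 6.65% of all), and the ERRalpha letters were in 0, against 0.233% and 0.412%. A match is a description of the sequence and does not show binding in these kidneys. The 10 genes with the YY1 letters had a median difference of -0.33 at 2 days and -0.20 at 5 days, and the 57 without them -0.31 and -0.20. With the NRF1 letters the medians were -0.24 and -0.14 (7 genes), and without them -0.34 and -0.20 (60 genes). With the GABPA letters they were -0.30 and -0.17 (8 genes), and without them -0.31 and -0.21 (59 genes). For each of these motifs the medians with and without the letters differed by about 0.1 or less. The 6 genes with an E-box had medians of -0.53 and -0.56, and the 61 without it -0.31 and -0.17. The E-box split rests on few genes, among them Atp5mc1, Atp5mg and Atp5pb of ATP synthase, and was not tested. Every promoter printed above holds a match, but many of the 67 hold none, among them those of Cox7a2l and Atp5if1.

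Complex I, the NADH dehydrogenase, had the lowest medians of the 4 complexes, -0.40 at 2 days and -0.23 at 5 days over its 38 genes, but the range within it was wide. Among the core subunits, which carry the flavin and iron-sulfur centres in the peripheral arm, 6 were measured, with medians of -0.20 and -0.26. Ndufs1, the largest core subunit, had values of 14.86 in control, 14.04 in Tl 2 days and 13.98 in Tl 5 days. Both Tl arrays were thus lower by a similar amount, -0.82 and -0.88, or 0.567- and 0.544-fold. Ndufs3 (-0.48 and -0.36) and Ndufs8 (-0.33 and -0.45) were lower by smaller amounts, and Ndufv2 (-0.06 and -0.15) and Ndufs7 (0.03 and -0.14) were close to control. Ndufv1, which binds NADH, had a value of 11.20 on each of the 3 arrays. Exactly equal values on all 3 arrays were found for 11.6% of all genes. How they arose is not known, so such a value may not show a level kept at control. Even without Ndufv1, the core of the complex was not uniformly lower, with Ndufs1 farthest below control.

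The 25 accessory subunits of complex I had medians of -0.42 and -0.31. Ndufs4, an accessory subunit of the peripheral arm whose loss causes a fatal encephalopathy in mice, had values of 11.91 in control, 11.12 in Tl 2 days and 10.90 in Tl 5 days. It was lowest at 5 days, where the difference of -1.02 (0.495-fold) put it just past the 2-fold limit, after -0.79 at 2 days. Ndufa7 followed the same order, with 11.51, 10.97 and 10.52, and at 5 days lay just inside the limit with a difference of -0.99. Ndufa9, which sits near the ubiquinone site, had 13.21, 12.43 and 12.28. All 3 genes belong to the peripheral arm and had their lowest value in Tl 5 days. In contrast, Ndufab1, the mitochondrial acyl carrier protein, had 11.11 in control, 10.22 in Tl 2 days and 11.06 in Tl 5 days. Its value was low at 2 days only, by -0.89, and at 5 days was within 0.04 of control. Ndufa6 had 9.06, 9.02 and 9.55, so that it was higher than control at 5 days by 0.49.

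In the membrane arm, which pumps protons, 15 accessory subunits were measured, and their medians were -0.44 and -0.35, against -0.28 and -0.24 for the 14 subunits of the peripheral arm. Ndufb4 had 10.45 in control, 9.78 in Tl 2 days and 9.97 in Tl 5 days, and Ndufb3 had 14.50, 13.98 and 13.77. Both were below control on each Tl array, Ndufb4 with its lower value at 2 days and Ndufb3 at 5 days. Ndufb7 (0.00 and 0.11) and Ndufs5 (0.00 and 0.04) were the members of this arm that were not below control on either array. Their 2 day values were exactly equal to control, as were those of 19.8% of all genes. Ndufb8, whose protein the study blotted as the representative of complex I, had 10.74, 10.32 and 10.35. Its difference was close to the complex I median at 2 days (-0.42 against -0.40). At 5 days it was farther below control than that median (-0.39 against -0.23). Ndufa10 (-0.48 and -0.54) and its copy Ndufa10l1 (-0.52 and -0.37) had similar differences, and signal shared between their probe sets was not tested.

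The 6 assembly factors of complex I that carry an Ndufaf name were closer to control than its subunits. As deposited they had medians of 0.01 at 2 days and 0.01 at 5 days, while the 31 subunits had medians of -0.42 and -0.31. The factors had -0.11 at 2 days when each array was centred, and -0.64 and -0.62 relative to Gapdh. Both of these scalings move every gene by the same amount, so they leave the contrast with the subunits unchanged. The closeness to control did not extend at 2 days to the 9 measured complex I assembly factors with other names, which had medians of -0.37 and 0. Of these, 7 and 3 of 9 were below control, among them Timmdc1 (-0.96 and -0.42) and Tmem126b (-0.68 and -0.47). Ndufaf6 had 8.06 in control, 6.94 in Tl 2 days and 8.56 in Tl 5 days. It was the gene with the lowest difference of the set at 2 days (-1.12, 0.46-fold), yet at 5 days it was above control by 0.50, and its value at 2 days lay near the ERCC level of 6.83. Ndufaf5, which modifies the core subunit Ndufs7, had 6.49, 6.92 and 7.43, higher on both Tl arrays by 0.43 and 0.93, with a control value under the ERCC level. Ndufaf1 was lower by the same amount on both arrays (-0.31), and Ndufaf4, Ndufaf7 and Ndufaf8 lay within 0.03 of control. Most of these genes had low signals, and only the 2 day difference of Ndufaf6 and the 5 day difference of Ndufaf5 exceeded the SD of the negative controls. These controls spread more widely than named genes of low signal.

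Complex III, which passes electrons from ubiquinol to cytochrome c, had all 8 genes below control at 2 days, with a median of -0.35, and 6 of 8 at 5 days, with a median of -0.14. Uqcr10, a small accessory subunit, had 11.80 in control and 11.24 on both Tl arrays. Uqcrh, the hinge protein that docks cytochrome c, had 11.60, 11.11 and 11.44, and Uqcrb had 12.09 in control, 11.70 in Tl 2 days and 12.09 again in Tl 5 days. Uqcrb and Uqcrh were thus lower mainly at 2 days, and Uqcr10 at both times. The core protein Uqcrc2, also blotted by the study, had 14.30, 13.86 and 13.96, and its partner Uqcrc1 was lower by 0.24 on both arrays, at 10.86, 10.63 and 10.63. The Rieske iron-sulfur protein Uqcrfs1, a catalytic subunit, differed by -0.26 and -0.12, Uqcr11 by -0.31 and -0.08, and Uqcrq by -0.08 and 0.03. None of the 8 genes was lower at 5 days than at 2 days.

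Complex IV, cytochrome c oxidase, had the smallest median difference of the 4 complexes at 2 days, -0.20, and -0.15 at 5 days, over 16 genes that include 5 isoforms with little or no signal. Over its 10 common nuclear subunits the medians were -0.32 and -0.20. Ndufa4, first assigned to complex I and later found with complex IV, had 14.51 in control, 13.95 in Tl 2 days and 13.82 in Tl 5 days. Cox7a2, the common isoform of subunit 7A, had 14.03, 13.57 and 13.52. Both were lower on both Tl arrays, as were Cox7b (-0.48 and -0.46), Cox6c (-0.48 and -0.20), Cox6b1 (-0.34 and -0.24) and Cox8a (-0.20 and -0.20). Cox5b, the zinc-binding subunit, had 13.65 on all 3 arrays, and 11.6% of all genes likewise had exactly equal values on all of them. Cox5a was lower by 0.10 at 2 days and equal to control at 5 days. Cox4i1, the common isoform of subunit 4, had 11.28, 10.97 and 11.32, so that it was below control at 2 days and 0.05 above it at 5 days.

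The isoforms of complex IV subunits that are typical of other tissues had very low signals. Cox6a2 and Cox8b, the isoforms of heart and skeletal muscle, had values of 2.74, 2.73 and 3.02 and of 3.65, 3.94 and 4.12 in control, Tl 2 days and Tl 5 days. Cox4i2, the lung isoform linked to hypoxia, had 3.02, 3.34 and 2.80, the testis isoform Cox8c had 5.96, 6.48 and 6.05, and Ndufa4l2, a hypoxia-induced relative of Ndufa4, had 4.37, 4.17 and 4.16. All of these lay below the ERCC level on every array, as did the 7 measured muscle markers, so no switch from a common to an alternative isoform was detectable on these arrays. Cox6a1, the common form of subunit 6A, was lower by 0.19 and 0.10.

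Cox7a2l, a relative of subunit 7A that promotes the joining of complexes III and IV into supercomplexes, was the exception within the complex. It had 10.07 in control, 10.07 in Tl 2 days and 11.11 in Tl 5 days. The value was the same in control and at 2 days within 0.01, and at 5 days it was 2.05-fold that of control, the highest difference of all 76 genes (1.03).

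ATP synthase consists of the F1 head, which makes ATP, the membrane part Fo with its rotor ring, and a peripheral stalk that holds them together. All 13 subunit genes were below control at 2 days and 11 of 13 at 5 days, with medians of -0.39 and -0.24. The 4 F1 genes had medians of -0.29 and -0.48. Atp5f1a, the alpha subunit that was also blotted, had 16.98 in control, 16.58 in Tl 2 days and 16.52 in Tl 5 days, and Atp5f1b, which holds the catalytic sites, had 17.36, 16.97 and 16.86. These are the only members above the 99th percentile of the genes on the array, where signals can be compressed, and both were lower on both Tl arrays. The epsilon subunit Atp5f1e had 11.77, 11.66 and 11.15, low mainly at 5 days (-0.62), and the delta subunit Atp5f1d was lower by 0.19 and 0.15.

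In the peripheral stalk, Atp5pf (coupling factor 6) had 12.25 in control, 11.53 in Tl 2 days and 11.36 in Tl 5 days, the lowest differences of ATP synthase at both times (-0.71 and -0.89). Atp5pb differed by -0.58 and -0.47, Atp5po by -0.14 on both arrays, and Atp5pd by -0.29 and 0.02. The stalk genes therefore spanned the range from near the control value to nearly 2-fold below it. Subunit c, which forms the rotor ring, was measured through Atp5mc1 and Atp5mc2, which encode the same mature protein. Atp5mc1 had 10.71 in control and 10.05 on both Tl arrays (0.634-fold), and Atp5mc2 had 13.55, 13.32 and 13.49. Atp5mc1 was over 1.5-fold below control on both, while Atp5mc2 had nearly its control value at 5 days (-0.06). Of the other Fo subunits, Atp5mf (-0.42 and -0.16) and Atp5mg (-0.47 and -0.24) were lower on both arrays, and Atp5mk had 12.07, 12.06 and 12.42.

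Atp5if1, the inhibitory factor that stops ATP synthase from hydrolysing ATP when the membrane potential collapses, ran against the subunits. It had 12.05 in control, 12.28 in Tl 2 days and 13.01 in Tl 5 days, or 1.18- and 1.95-fold the control value. It was the only ATP synthase gene above control at 2 days, and at 5 days it lay just inside the 2-fold limit with a difference of 0.96.

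**Figure D3:**
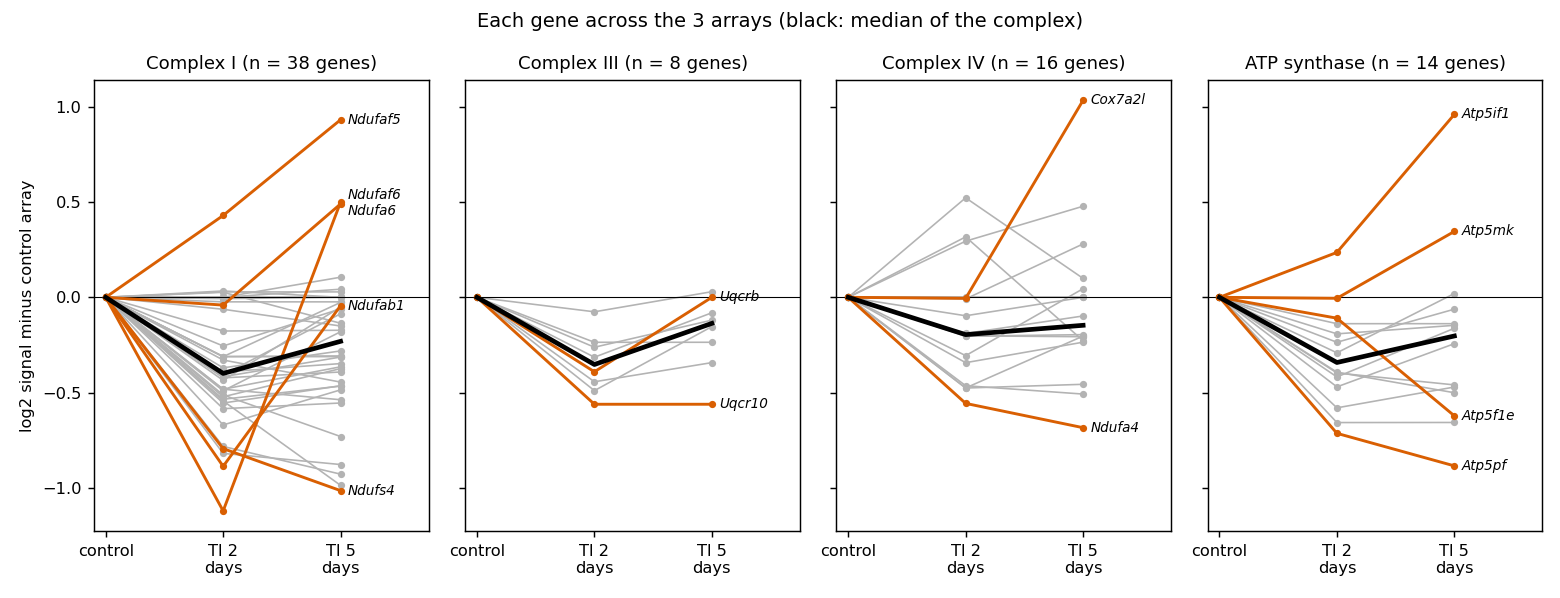
Difference in log2 value from control (vertical axis) on the control, Tl 2 days and Tl 5 days arrays (horizontal axis), 1 panel per complex and 1 line per gene, with the median of the complex in black. Genes picked by hand are labelled and in orange, and the others are in grey. Ndufs4, Ndufa4 and Atp5pf are lower on both Tl arrays, Ndufaf6 and Ndufab1 are low at 2 days only, and Cox7a2l (1.03) and Atp5if1 (0.96) are highest at 5 days.

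Between the 2 Tl arrays the values at 5 days were slightly higher for most of the 76 genes. A higher value at 5 than at 2 days was found for 49 genes (64.5%), against 5766 of all 15037 genes. A lower one was found for 19 (25%, against 38.4% of all genes) and an equal one for 8 (23.2% of all genes were equal). The median was 0.06. Quantile normalization changed this split to 31 lower and 45 higher, and centring to 13 lower and 63 higher. Under quantile normalization 40.8% of the 76 genes were thus lower, near the 45.3% of all genes. With centring the shares were 17.1% and 31.4%. The contrast with all genes between these arrays therefore depended on the scaling. Over 2-fold higher were Cox7a2l (1.04) and Ndufaf6 (1.62), where 2.21% of all genes were, and none was over 2-fold lower, where 3.07% of all genes were. At 1.5-fold, Atp5if1 (0.72) and Ndufab1 (0.84) joined them, against 6.37% of all genes, and none was lower, against 7.67%. Of the 64 genes below control at 2 days, 44 (68.8%) were higher at 5 than at 2 days, against 57.3% of all genes below control at 2 days, and 15 (23.4%) were lower still, against 26.8%. The 15 included Ndufs4, Ndufa7, Ndufa9, Ndufb3, Ndufs1, Atp5f1a, Atp5f1b, Atp5f1e and Atp5pf. These comparisons share the Tl 2 days array, so the counts are not independent of each other.

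By role, the 47 accessory subunits of all complexes had medians of -0.42 at 2 days and -0.20 at 5 days, and the 13 genes classed as core subunits had medians of -0.26 and -0.36. The order of both classes thus differed between the 2 times, and it rested on few genes. The core class held Uqcrfs1, genes of complex I and genes of ATP synthase (Atp5f1d, Atp5f1e, Atp5mc1 and Atp5mc2 included), and none of complex IV. Class was therefore partly mixed with complex. Without Atp5f1a and Atp5f1b, the core median at 5 days was -0.15. Over all 62 subunits the medians were -0.39 and -0.22, with 57 and 51 genes below control.

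The difference from the other genes was seen at each level of signal from a mean log2 value of 9 to 15. Among genes with a mean log2 value of 9 to 11, the 21 respiratory genes had medians of -0.33 and -0.24, and the 2466 other genes had medians of 0 at both times. From 11 to 13 the 23 respiratory genes had -0.31 and -0.15, and from 13 to 15 the 16 respiratory genes had -0.45 and -0.22, against 0 and 0.03 for 612 other genes. From 7 to 9 the 6 respiratory genes had medians of -0.09 and -0.05, with 3 below control at each time. Below a mean of 7, where 7 respiratory genes lay, their medians were 0.29 and 0.10.

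**Figure D4:**
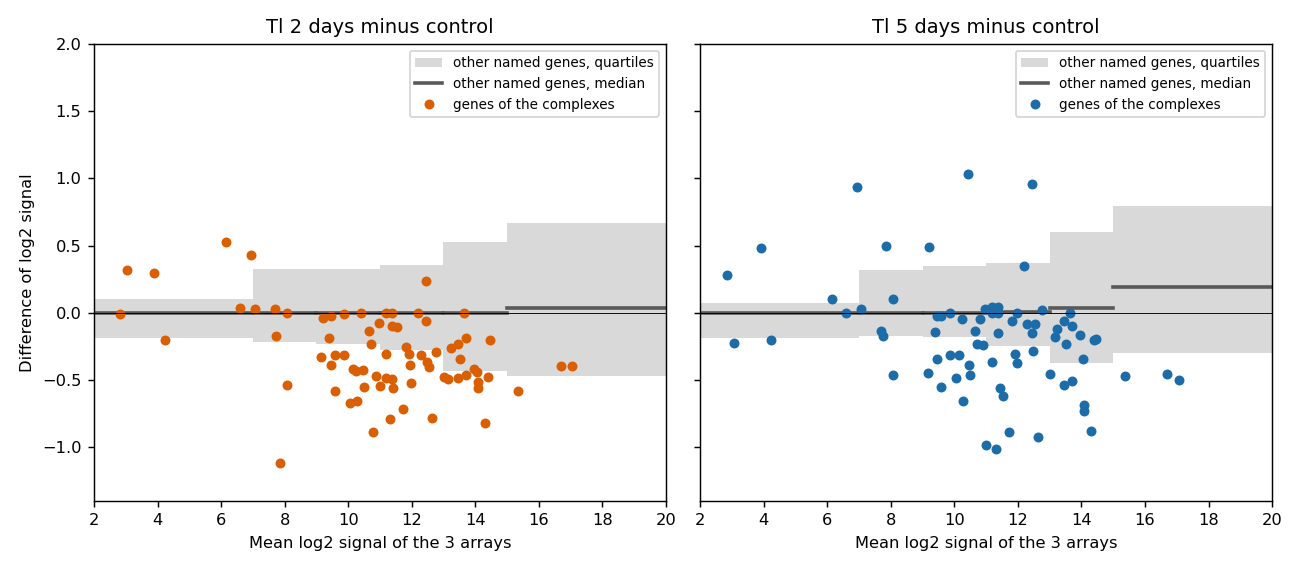
Difference in log2 value from control (vertical axis) against the mean log2 value over the 3 arrays (horizontal axis) for the 76 respiratory genes (points), in Tl 2 days and Tl 5 days, with the median (line) and quartiles (grey) of the other named genes in bins of the mean. Above a mean of 9 the respiratory genes lie mostly below 0, while the median of the other genes is 0 up to a mean of 13.

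Other parts of the respiratory chain, which the name rule left out, were read from fixed lists. All 4 subunits of complex II (succinate dehydrogenase) were lower on both Tl arrays, with medians of -0.49 and -0.47. Sdha had 14.41, 13.46 and 13.91, and Sdhb, also blotted, had 14.75, 14.31 and 14.31. Cytochrome c (Cycs) differed by -0.42 and -0.92, and cytochrome c1 of complex III (Cyc1) by -0.63 and -0.49. None of these passed 2-fold. Assembly factors outside the rule had medians of 0 and 0 for 7 of complex III and -0.04 and 0 for 20 of complex IV, beside the -0.37 and 0 of the 9 of complex I. In these 3 lists only Higd2a, a factor of complex IV assembly and supercomplexes, was over 2-fold from control, with 9.10 in control, 9.41 in Tl 2 days and 10.47 in Tl 5 days. The 5 factors of ATP synthase had medians of -0.54 and -0.10, and Dmac2l, with 9.20 in control, 7.87 in Tl 2 days and 8.17 in Tl 5 days, was over 2-fold lower on both.

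Of 16 regulators of mitochondrial biogenesis, 1 was over 2-fold lower and 1 over 2-fold higher at 2 days, and 0 lower and 1 higher at 5 days. The coactivator Ppargc1a (PGC-1alpha) had 14.74 in control, 13.38 in Tl 2 days and 14.04 in Tl 5 days, so that it was lowest at 2 days, by -1.36. Nrf1 had 11.54, 12.11 and 11.54, higher at 2 days only, and Tfam, which maintains mitochondrial DNA, had 8.74, 8.74 and 9.33. Myc, a growth regulator that also reads the E-box, had 6.42, 11.07 and 10.74, from a control value below the ERCC level. Their part in the respiratory genes' values was not tested.

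The 16 measured enzymes of the TCA cycle had medians of -0.44 and -0.29, similar in size to the respiratory genes, and 4 of them are the complex II subunits. Idh2 (-1.56 and -1.46) and Idh3g (-1.03 and -1.06) were over 2-fold lower on both arrays. The 66 mitochondrial ribosomal protein genes had medians of 0 and 0, so not every class of nuclear mitochondrial genes was lower. Their signals were lower, with a control median of 8.54 against 11.43 for the 76 genes. The 6 respiratory genes with a mean of 7 to 9 were also near control, with medians of -0.09 and -0.05. The 69 cytoplasmic ribosomal protein genes had medians of 0.99 and 1.47, with 34 and 59 of them over 2-fold higher.

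Markers of kidney cell types differed on the same arrays. The summed linear level of the 18 proximal tubule markers was 0.53- and 0.575-fold that of control at 2 and 5 days, with a median difference of -0.65 and -0.47. Of these, 16 and 11 were lower than control, 5 over 2-fold on each array, and 2 and 7 were higher, 0 and 4 over 2-fold. The 8 measured markers of the thick ascending limb had a summed level of 0.136- and 0.0384-fold, with 6 over 2-fold lower on each array and 2 higher than control at 2 days. The 5 of the distal convoluted tubule had 0.294- and 0.107-fold, with 3 over 2-fold lower and Trpv5 over 2-fold higher on each array (3.43 and 1.64), and the 11 of the collecting duct had 0.441- and 0.398-fold, with 6 and 7 over 2-fold lower and 4 and 2 higher than control. A few abundant genes carry such sums. The 14 macrophage markers had a summed level of 1.55- and 3.59-fold, with 6 and 8 over 2-fold higher, and 9, 5 and 3 of them lay below the ERCC level in control, Tl 2 days and Tl 5 days. Most tubule markers were therefore lower and most macrophage markers higher on the arrays where the respiratory genes were lower, with the exceptions counted here, and their part in the respiratory result was not tested.

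**Figure D5:**
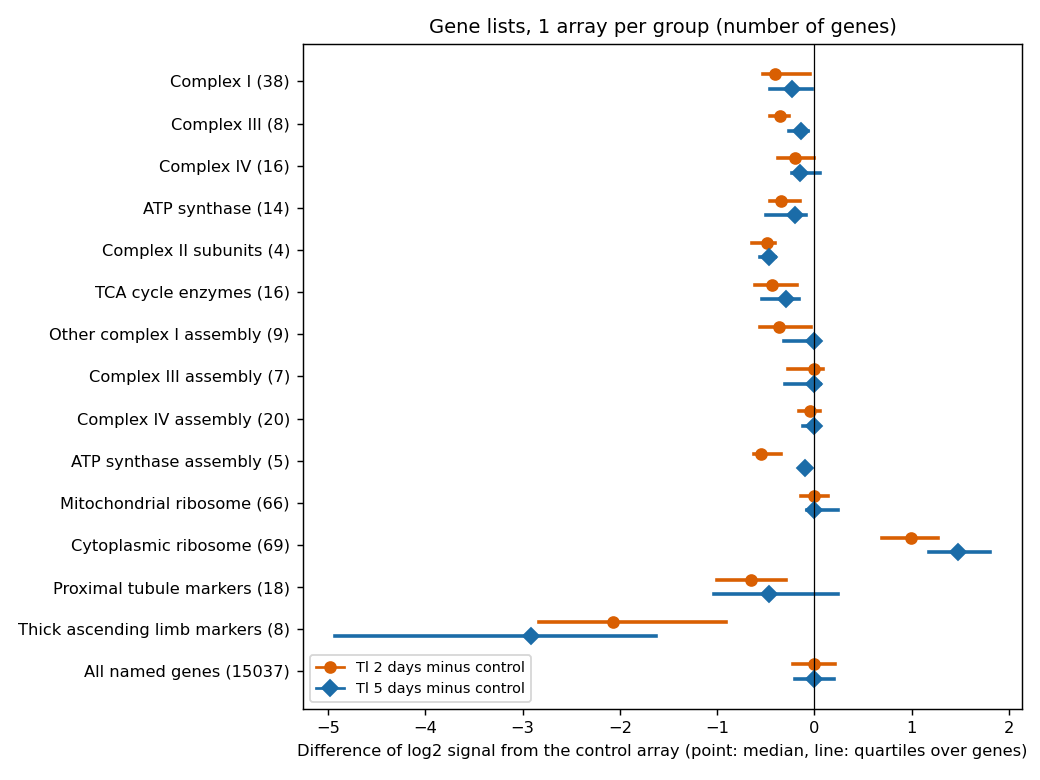
Median (point) and quartiles over genes (line) of the difference in log2 value from control (horizontal axis) for each gene list in Tl 2 days and Tl 5 days, with the number of measured genes beside each name. The respiratory complexes, complex II and the TCA cycle have medians below 0, mitochondrial ribosomal proteins lie at 0 and cytoplasmic ribosomal proteins above it, and thick ascending limb markers lie farthest below it (-2.07 and -2.91).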

How the data were processed

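Kidney RNA of each group had been extracted with Trizol, purified with an RNeasy kit and hybridized to Clariom S arrays, and the authors analysed them with Transcriptome Analysis Console. The log2 values were used as deposited by the authors, 1 per probe set and array. Their summarization and normalization are not given in the sources used here, and the log base was taken from the values and the study's folds. Groups were taken from the sample titles, and 1 array per group limits the precision of every value.

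Probe sets were named through the platform annotation, and those of the same gene were averaged (15049 probe sets with a single symbol, 15037 genes). All 76 members were found in the reference annotation under the same symbols. Differences of log2 values between arrays were computed without a test, and 2-fold was the limit. Complexes, classes and roles follow textbook knowledge. The members, lists and limits were chosen with earlier results of these data known. The genes named were those over 2-fold from control, the 2 highest and 2 lowest of each complex in each comparison with control, the isoform families, the core subunits of complex I, the members blotted in the study with Sdhb, 4 regulators and, of the other lists, those over 2-fold. Further members were named after their values were seen, to complete a complex. The counting and median steps were tested on simulated data. Alternatives were quantile normalization, centring on the median of the genes, values relative to Gapdh, only members with a mean above the 40th percentile or below the 99th, values raised to the 20th percentile, members without equal values, and limits of 1.5- and 3-fold. Others took the highest probe set of each gene, the subunits alone, or Ndufa4 as a member of complex I. The calculations ran in Python 3.11.15 with pandas 2.3.3 and numpy 2.4.6, and figures were drawn with matplotlib 3.10.9.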

Additional observations from a re-analysis of the deposited data

Results flagged for a closer look

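In 10 of the 76 genes the Tl 2 days and Tl 5 days arrays lay on opposite sides of control, which is 13.2% against 13.9% of all genes and thus near the background. These differences were not tested, and both are set against the same control array. The value at 5 days exceeded that at 2 days on the log2 scale by 1.62 for Ndufaf6, 1.04 for Cox7a2l, 0.53 for Ndufa6, 0.35 for Cox4i1, 0.35 for Atp5mk, 0.31 for Atp5pd, 0.29 for Cox6a2 and 0.11 for Uqcrq. For Cox4i2 and Ndufs7 the difference ran the other way, at -0.55 and -0.16. Cox4i2 and Cox6a2 were below the ERCC level on all arrays. The negative control probe sets had an SD of 0.84 between the Tl arrays, which only Ndufaf6 and Cox7a2l exceeded. That SD describes the negative controls, which spread more widely than named genes of low signal. It does not measure the noise at the signal of Cox7a2l.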

How the results depend on the processing

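No paired analysis was possible because each group had 1 array and no result came from a test. Of the main values under alternatives, 199 stayed within 1.5-fold or 0.1 of the reported value and 35 did not. The 199 include values from the highest probe set of each gene. Those could not differ, because each of the 76 genes had 1 probe set. The median of the 6 Ndufaf genes, 0.01 at both times as deposited, was below 0 under quantile normalization (-0.06 at both times), centring (-0.11 and -0.04) and relative to Gapdh. Centring each array moved the median of all genes by -0.12 at 2 days, and gave 2 genes over 2-fold lower (all genes 5.81%). The complex IV median was then -0.32 and that of the complex I assembly factors -0.11. At 5 days, quantile normalization gave 3 genes over 2-fold lower and 0 higher (all genes 5.11% and 4.96%). Centring gave 2 lower and 0 higher (all genes 5.22% and 4.93%). Relative to Gapdh, the median of all genes moved by -0.65 at 2 days and -0.63 at 5 days, since Gapdh itself was higher on both Tl arrays. At 2 days the median of the 76 genes was then -0.97, with 36 over 2-fold lower (all genes 18.6%), and the medians were -1.05 (complex I), -1.004 (III), -0.85 (IV), -0.99 (ATP synthase), -0.91 (core subunits), -1.07 (accessory subunits) and -0.64 (complex I assembly factors). At 5 days the median was -0.81, with 23 over 2-fold lower (all genes 16.3%) and 0 higher, and the others, in the same order, were -0.86, -0.77, -0.78, -0.84, -0.999, -0.83 and -0.62. On this scale Atp5if1 (-0.42) and Ndufaf5 (-0.22) were below control at 2 days, and Ndufaf6 (-0.13), Ndufa6 (-0.14), Atp5mk (-0.29), Cox4i1 (-0.59) and Uqcrq (-0.60) at 5 days. Cox4i1 and Uqcrq at 5 days were also below 0, by less than 0.1, under quantile normalization and centring. Without members above the 99th percentile the core median at 5 days was -0.15. A 1.5-fold limit gave 8 genes lower at 2 days (all genes 10.7%), and 9 lower and 3 higher at 5 days (all genes 9.97% and 11.2%). It gave 4 higher between the Tl arrays (all genes 6.37%). A 3-fold limit gave 0 lower at 2 days, 0 and 0 at 5 days and 1 higher between the Tl arrays. The shares of all genes at 3-fold were not computed. Lower values were found for 92.1% and 86.8% of the 76 genes under quantile normalization (all genes 50.3% and 50.5%), and for 93.4% and 86.8% with centring (all genes 69.5% and 64.9%), and for 100% and 96.1% relative to Gapdh (all genes 89.3% and 89.9%). The causes of these changes were not tested.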

Other observations

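Within the lists given above only by their medians, Suclg2, the GTP-forming subunit of succinyl-CoA ligase, had log2 values of 14.12 in control, 14.33 in Tl 2 days and 15.05 in Tl 5 days, whereas its ATP-forming partner Sucla2 had 13.43, 12.88 and 13.06. Both genes encode alternative beta subunits of the same enzyme, and they lay on opposite sides of control on both Tl arrays (0.21 and 0.93 for Suclg2, -0.54 and -0.37 for Sucla2). Timmdc1, a chaperone of the membrane arm of complex I, had 9.37, 8.40 and 8.95. It was the lowest of the measured complex I assembly factors outside the name rule at 2 days (-0.96) and did not pass 2-fold. Coa5, a complex IV assembly factor, had 17.31, 16.57 and 16.75, lower on both Tl arrays. These genes were picked after their values were seen, and no difference was tested.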
